A study of Mus musculus with 12 samples.

Results

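Complement is a cascade of blood proteins, most of them made by the liver, that tags and lyses microbes and damaged cells. In the classical route the proteases C1r and C1s are activated on the recognition protein C1q and cleave C4 and C2, while the alternative route runs through factor B, and both routes meet at the cleavage of C3, the central component. Host cells hold the cascade in check with the C1 inhibitor in the fluid phase and with CD55 and CD59 on the cell surface. Read counts for 8 genes of this system were followed in C2C12GFP cells: *C3*, *C4b*, and *Cfb* (complement components), *C1ra* and *C1s1* (the proteases), and *Serping1*, *Cd55*, and *Cd59a* (the inhibitors). These are 8 of the 55536 genes in the count table. The set was picked by gene name within the pathway. *C3* was the reason for picking it, because its change was among the largest seen between the groups. The values of *C3* are therefore given as a description, with no test, and tests are given for the other members.

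C2C12GFP is an immortalized mouse myoblast line that carries green fluorescent protein and fuses into myotubes in low-serum medium. RNA sequencing covered 12 samples, 3 on each of 4 plate surfaces: a control with no named coating, Collagen I, fibronectin, and Geltrex™, a basement membrane extract made up mainly of laminin, Collagen IV, and entactin. All 12 samples share the line, the passage into multiwell plates, and the calf serum differentiation medium; the day of differentiation at which RNA was taken is not stated, the sample labels speak of myoblasts, and no label says that the 3 samples of a group were separate cultures, so p-values measure the spread between these samples, which may be technical. Total counts per sample ran from 22520404 to 27351766. Levels are given as CPM, the reads of a gene relative to the effective size of its library. The test was edgeR's quasi-likelihood F test on the counts, and a gene passed it at an adjusted p of at most 0.05, where p-values were adjusted by Benjamini and Hochberg's method across the 14499 genes tested.

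The cultures carried the transcripts of differentiated muscle. The 8 myotube markers, which include *Myog*, *Ckm*, and *Acta1*, summed to 7473 to 8432 CPM in the control, 8179 to 8438 CPM on Collagen I, 2013 to 2455 CPM on fibronectin, and 3079 to 3367 CPM on Geltrex™, and 8 of 8 were lower on fibronectin and on Geltrex™ than in the control by the test, where 14.7% and 16.6% of all tested genes were lower. The 6 fibroblast markers summed to 2450 to 2975 CPM in the control, 2448 to 2636 on Collagen I, 2066 to 2331 on fibronectin, and 1711 to 1760 on Geltrex™, with *Thy1* at 0 counts in all samples. Of the 5 that were tested, 4 were lower on Geltrex™ than in the control (*Lum*, with a log2 fold change of -2.24, *Col1a1*, *Dcn*, and *Pdgfrb*) and 3 on fibronectin. The 7 markers of parietal endoderm, the cell type resembled by the mouse tumor from which basement membrane extracts are made, summed to 99.7 to 109.6 CPM in the control, 125.7 to 137 on Collagen I, 103.7 to 138 on fibronectin, and 148 to 157 on Geltrex™. Of these 7, 2 were tested. *Thbd* was at 84.6 CPM in the control, 113 on Collagen I, and 132 on Geltrex™ as group means. It was higher on Geltrex™ than in the control, by 0.64 (edgeR adjusted p = 0.000162), but did not pass against Collagen I. *Gata4* was at 19.1 CPM in the control and 19.3 on Geltrex™, a log2 fold change of 0.015 (edgeR adjusted p = 0.928). *Sox7* and *Sox17* were at 0 counts and *Lama1* had at most 7. The 5 endothelial markers summed to at most 3.53 CPM in any sample. The part that these differences in muscle and fibroblast transcripts and in *Thbd* have in the values below was not tested. Because the RNA is from whole cultures, fewer cells of a type and less RNA per cell cannot be told apart. The 10 leukocyte markers summed to 9.72 to 13.1 CPM in the control, 10.8 to 13.7 on Collagen I, 7.95 to 9.16 on fibronectin, and 8.70 to 9.48 on Geltrex™, with *Adgre1* and *Tyrobp* at 0 counts in all 12 samples and *Ptprc* at 1 count in a single sample. The 5 hepatocyte markers summed to at most 0.474 CPM on the other surfaces and to 0.165 to 3.50 CPM on Geltrex™, where 1 library stood apart: Geltrex™ replicate 1 held 42 counts of albumin (*Alb*), 9 of *Apoa1*, and 28 of *Apob*, while Geltrex™ replicates 2 and 3 held 0 counts of *Alb*. The differences of *C3*, *C1ra*, *C1s1*, and *Serping1* between Geltrex™ and the control are therefore also given without that library.

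*C3* (ENSMUSG00000024164) lies on the minus strand at chr17:57203970-57228136 of GRCm38 and has 5143 bases of annotated exon. The control samples held 22, 34, and 24 reads of *C3*, Collagen I held 22, 11, and 27, and fibronectin held 30, 31, and 39. On Geltrex™ the counts were 9551, 8238, and 7460. The 3 Geltrex™ samples stood far above the other 9, which overlapped one another. As CPM, *C3* was 1.05 ± 0.188 in the control, 0.842 ± 0.390 on Collagen I, 1.31 ± 0.20 on fibronectin, and 361 ± 40.5 on Geltrex™ (SD, n = 3 each). The ratio of mean levels, Geltrex™ to control, was 345, and the lowest Geltrex™ sample was 269.7 times the highest control sample. Against fibronectin the ratio of means was 276, and against Collagen I it was 429. In the fit across genes the log2 fold change of *C3* over control was 8.42, the second highest of the 14499 genes, and it was 8.33 without Geltrex™ replicate 1. It was at 408 CPM in Geltrex™ replicate 1, which held the albumin reads, and at 339 and 336 CPM in Geltrex™ replicates 2 and 3, which held none. *C3* made up 0.180% to 0.610% of the summed CPM of the 8 members on the other surfaces and 47.3% to 49.6% on Geltrex™.

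Per kilobase of exon, a scale on which genes can be compared, *C3* was near the bottom of the expressed genes in the control and near the top on Geltrex™. It stood at 0.204 ± 0.0365 CPM per kilobase in the control, with 7.46% of the tested genes below it, and at 70.2 ± 7.87 on Geltrex™, with 96.2% below it (SD, n = 3 each). On Geltrex™ *C3* and *C1s1*, at 62.1 ± 5.67 CPM per kilobase, were the members with the highest level, whereas in the control *Cd55*, at 28.3 ± 6.05, and *C1s1*, at 23.1 ± 2.91, were highest.

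**Figure D1:**
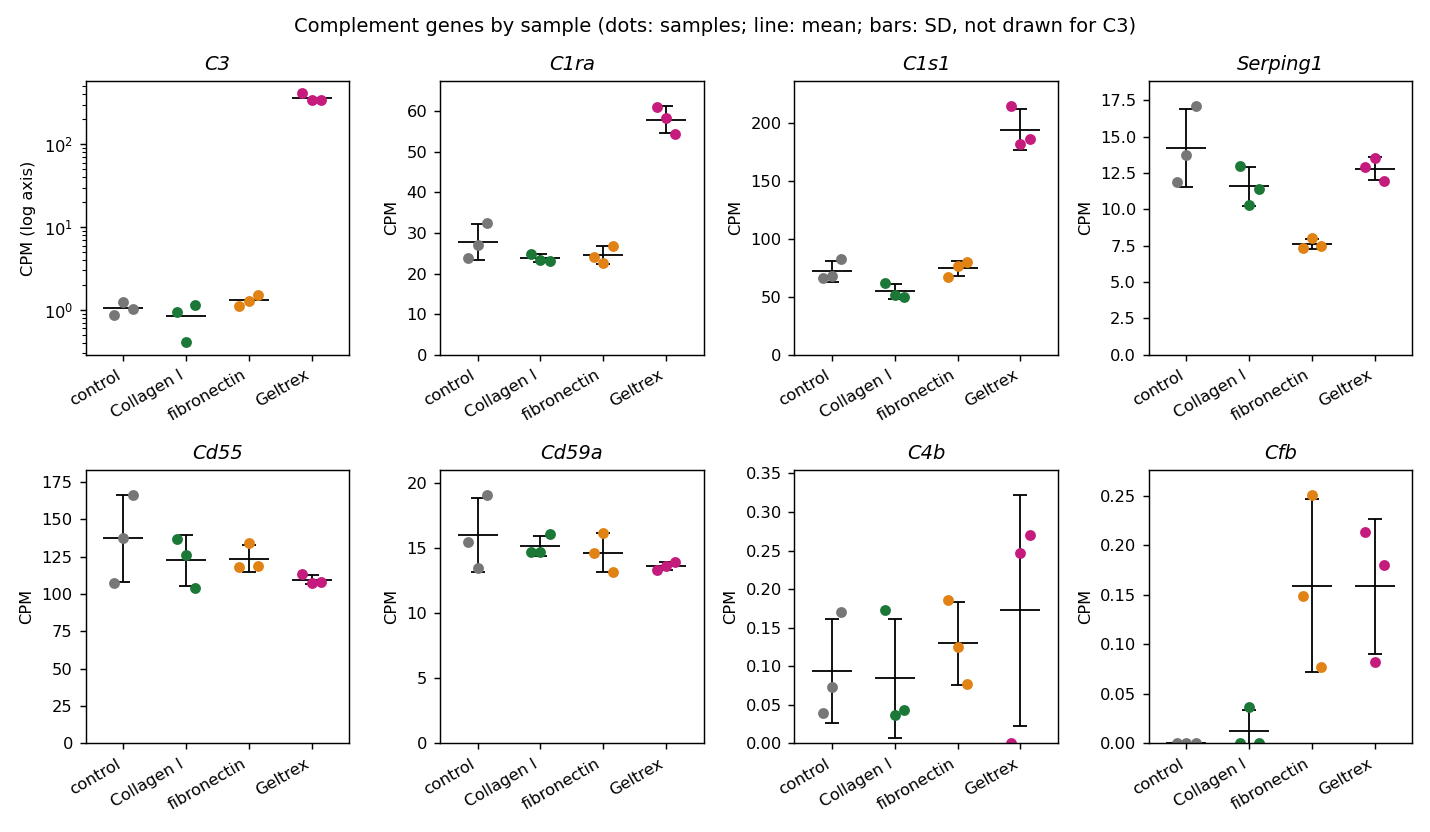
CPM of each of the 8 complement genes in every sample, by plate surface (n = 3 each); dots are samples, the line is the mean and the bars are the SD, and the *C3* axis is logarithmic and has no bars. *C3* stood near 1 CPM on 3 surfaces and between 336 and 408 CPM on Geltrex™, *C1ra* and *C1s1* were also highest on Geltrex™, and *Serping1* was lowest on fibronectin.

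The promoters of the members that differed most on Geltrex™ are shown because letters known to be bound by inflammatory transcription factors can be looked for in them. Given here are the 250 bases before the RefSeq start of *C3* (GRCm38.p6, chr17:57228137-57228386, minus strand) and of the first of the RefSeq starts of *C1s1* (chr6:124542360-124542609, minus strand), read 5′ to 3′ and ending at the base before the start, with capitals for a match to the C/EBP letters TTGCNNAA on either strand.
C3: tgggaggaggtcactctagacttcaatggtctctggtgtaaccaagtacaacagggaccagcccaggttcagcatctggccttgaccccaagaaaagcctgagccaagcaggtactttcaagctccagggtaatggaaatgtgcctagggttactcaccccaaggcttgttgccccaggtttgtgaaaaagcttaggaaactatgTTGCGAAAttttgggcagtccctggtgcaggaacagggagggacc
C1s1: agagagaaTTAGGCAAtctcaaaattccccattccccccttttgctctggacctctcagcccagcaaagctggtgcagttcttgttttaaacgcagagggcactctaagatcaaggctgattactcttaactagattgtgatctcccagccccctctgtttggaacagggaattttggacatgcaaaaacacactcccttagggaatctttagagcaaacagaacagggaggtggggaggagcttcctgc
In *C3* the match TTGCGAAA lay 45 to 38 bases before the start, and in *C1s1* the match on the other strand lay 242 to 235 bases before it. The C/EBP letters were found in 9.56% of all 32851 promoter windows of this length, so a match is common. Neither window held the letters of the interferon-stimulated response element (GAAA and GAAA with any 2 bases between, in 2.98% of windows), of the gamma-activated site (TTCNNNGAA, 7.02%), or of NF-kB (GGGA, any 2 bases, and TTCC, 1.21%), searched on both strands. Among the other members with an entry, *Cd59a* held a GAAAGGGAAA match 187 to 178 bases before its start. *C1ra*, which was also higher on Geltrex™, and *Cd55* held no match to any of these letters. The window of the second RefSeq start of *C1s1* held none either. *C4b*, *Cfb*, and *Serping1* had no entry. Neither printed window overlaps an annotated gene in GENCODE M21. Of the 250 bases of the *C1ra* window, however, 216 lie within the annotated *C1ra* gene, so little sequence before that gene was searched. The *Cd55* window lies wholly within *Gm16083* on the opposite strand, and 38 bases of the second *C1s1* window lie within *C1s1*. These matches describe letters only and say nothing of binding.

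The proteases of the first complement component were both higher on Geltrex™. *C1ra* (ENSMUSG00000055172; chr6:124512405-124523443, plus strand) and *C1s1* (ENSMUSG00000038521; chr6:124530345-124542359, minus strand) are neighbors; C1r activates C1s, and C1s cleaves C4 and C2. *C1s1* was at 66.3, 67.6, and 82.7 CPM in the control samples, 62.1, 51.5, and 50.1 on Collagen I, 67.1, 76.2, and 80.0 on fibronectin, and 214.6, 182, and 186 on Geltrex™. Each Geltrex™ sample was above each sample of the other surfaces, and each Collagen I sample was below each control sample. The log2 fold change over control was 1.43 on Geltrex™ (SE 0.110, edgeR adjusted p = 1.11e-07), a 2.69-fold difference, and 1.36 without Geltrex™ replicate 1. On fibronectin it was 0.044 (95% interval -0.21 to 0.30, edgeR adjusted p = 0.793). On Collagen I it was -0.40 (SE 0.110, edgeR adjusted p = 0.0890), which did not pass, although DESeq2 gave an adjusted p of 0.0254. Set against each other, fibronectin exceeded Collagen I by 0.45 (SE 0.110, edgeR adjusted p = 0.00415).

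*C1ra* was at 23.8, 27.0, and 32.5 CPM in the control, 24.9, 23.4, and 23.1 on Collagen I, 24.2, 22.6, and 26.8 on fibronectin, and 61.1, 58.3, and 54.4 on Geltrex™. The Geltrex™ samples were again apart from the rest, and the other surfaces overlapped. Its log2 fold change over control was 1.06 on Geltrex™ (SE 0.105, edgeR adjusted p = 1.48e-06), or 2.09-fold, and 1.03 without Geltrex™ replicate 1. The Geltrex™ difference was 1.24 against fibronectin and 1.28 against Collagen I (edgeR adjusted p = 6.54e-07 and 1.95e-07). Neither fibronectin, at -0.18 (95% interval -0.42 to 0.070), nor Collagen I, at -0.22 (-0.47 to 0.025), passed the test over control (edgeR adjusted p = 0.226 and 0.349).

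Both proteases have near-identical neighbors, *C1rb* and *C1s2*, between which reads can be split. *C1s2* was at 4.76 ± 0.351 CPM in the control and 12.2 ± 0.773 CPM on Geltrex™ (SD, n = 3 each), a log2 fold change of 1.36 (edgeR adjusted p = 1.88e-06). *C1rb* was at 2.79 ± 0.778 and 5.65 ± 0.341 CPM (SD, n = 3 each), a log2 fold change of 1.02 (edgeR adjusted p = 0.00083). Per kilobase, *C1s2* carried 0.0668 to 0.0781 of the reads of *C1s1* as group means and *C1rb* carried 0.116 to 0.148 of those of *C1ra*, so most of the reads of each pair were assigned to the named member. A further 18.4% of the exon bases of *C1s1* are shared with *Gm16567* on the opposite strand, which had 0 counts in all samples. *C1qa*, *C1qb*, and *C1qc*, for the subunits of C1q, on which C1r and C1s are activated, were at 0 counts in every sample.

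*Serping1* (ENSMUSG00000023224; chr2:84765387-84775444, minus strand) encodes the C1 inhibitor, which binds and inactivates C1r and C1s. It was at 11.9, 13.7, and 17.1 CPM in the control, 13.0, 10.3, and 11.4 on Collagen I, 7.35, 8.04, and 7.46 on fibronectin, and 12.9, 13.5, and 11.9 on Geltrex™. The fibronectin samples were below every other sample, and the other surfaces overlapped. *Serping1* fell by 0.90 on the log2 scale on fibronectin against the control (SE 0.136, edgeR adjusted p = 0.000131). The fibronectin level was also below Collagen I, with a log2 fold change of -0.60 (SE 0.138, edgeR adjusted p = 0.00243), and Geltrex™ was above fibronectin by 0.75 (SE 0.137, edgeR adjusted p = 0.00113). On Geltrex™ the difference from the control was -0.15 (95% interval -0.46 to 0.15, edgeR adjusted p = 0.412), -0.15 again without Geltrex™ replicate 1, and on Collagen I it was -0.30 (-0.60 to 0.00895, edgeR adjusted p = 0.310).

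**Figure D2:**
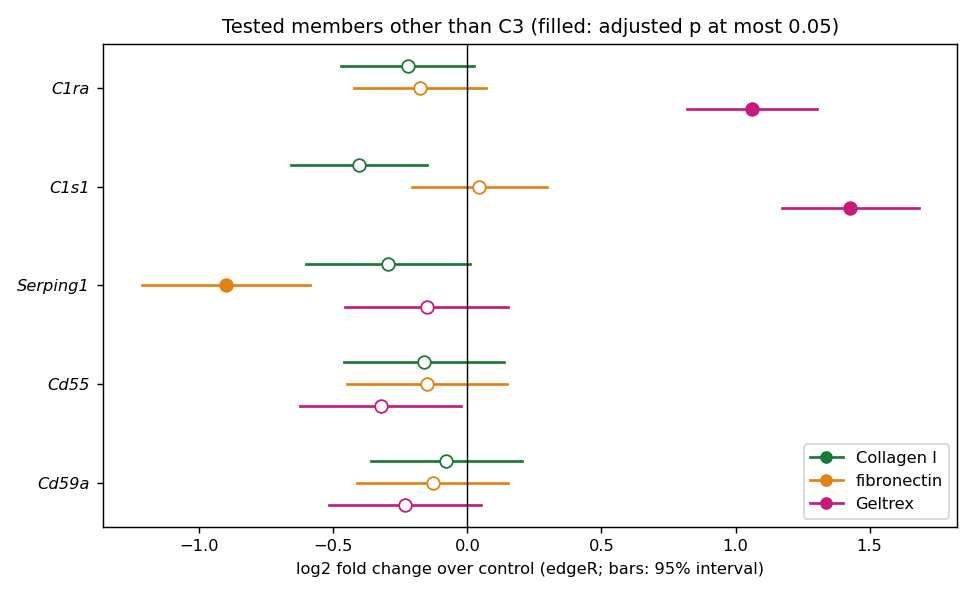
Log2 fold change over control of the 5 tested members other than *C3* on Collagen I, fibronectin, and Geltrex™ (edgeR, n = 3 samples a group); points are estimates, bars are 95% intervals, and filled points have an adjusted p of at most 0.05. *C1ra* and *C1s1* passed on Geltrex™ at 1.06 and 1.43, and *Serping1* passed on fibronectin at -0.90.

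Within a sample, the reads of *C1s1* per kilobase of exon were set against those of *Serping1*, a ratio that does not depend on library size. The *C1s1* to *Serping1* ratio was 4.16, 3.66, and 3.59 in the control, 3.55, 3.71, and 3.26 on Collagen I, 6.79, 7.05, and 7.97 on fibronectin, and 12.4, 10.02, and 11.6 on Geltrex™. The control and Collagen I overlapped, fibronectin stood above both, and Geltrex™ stood above fibronectin. The mean ratio was 1.91 times that of the control on fibronectin and 2.98 times on Geltrex™. By the exact permutation test each of these gave p = 0.1, the smallest that 3 samples against 3 allow, and 0.12 after adjustment over the 6 comparisons of this ratio. The *C1ra* to *Serping1* ratio had the same order, with means of 1.53 ± 0.0431 in the control, 1.61 ± 0.139 on Collagen I, 2.52 ± 0.307 on fibronectin, and 3.54 ± 0.164 on Geltrex™ (SD, n = 3 each). On fibronectin the ratios go with a lower level of the inhibitor and protease levels that did not pass the test, and on Geltrex™ with higher levels of the proteases.

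**Figure D3:**
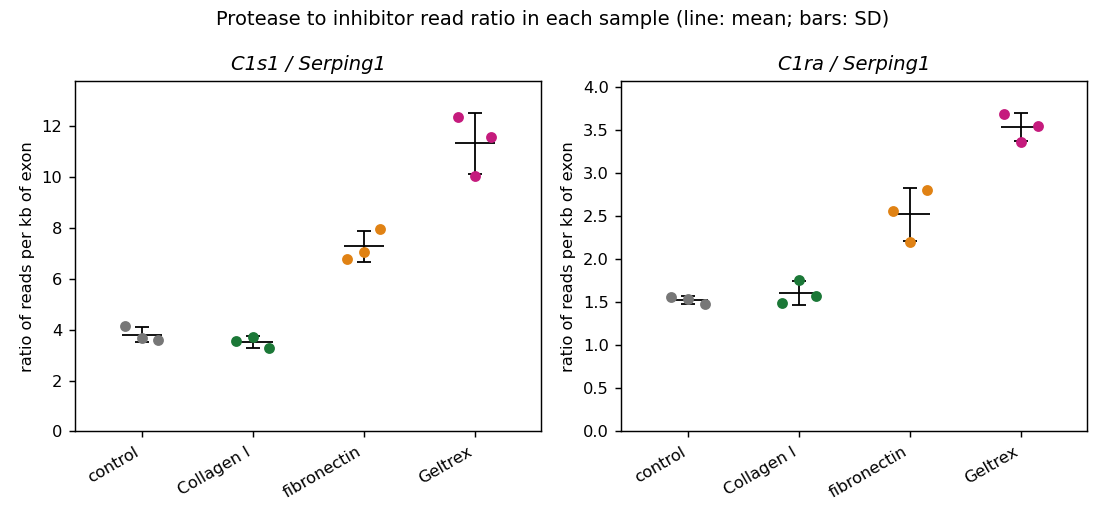
Ratio of *C1s1* (left) and *C1ra* (right) to *Serping1* in reads per kilobase of exon, for every sample by plate surface; dots are samples, the line is the mean and the bars are the SD (n = 3 each). The mean *C1s1* ratio was 3.80 in the control, 3.51 on Collagen I, 7.27 on fibronectin, and 11.3 on Geltrex™, and the last pair overlapped with no other surface.

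The partners of *C3* in the convertases, the enzymes that cleave C3, were barely detected. *C4b* (ENSMUSG00000073418; chr17:34728380-34743882, minus strand) had 1, 2, and 4 reads in the control, 4, 1, and 1 on Collagen I, 5, 3, and 2 on fibronectin, and 0, 6, and 6 on Geltrex™. *Cfb* (ENSMUSG00000090231; chr17:34856374-34862518, minus strand) had 0 reads in each control sample, 0, 1, and 0 on Collagen I, 4, 6, and 2 on fibronectin, and 5, 2, and 4 on Geltrex™. Both fell below the filter on low counts and were not in the test. For *Cfb* the group sums were 0 in the control, where the exact Poisson 95% interval reaches 3.69 reads, 12 on fibronectin (6.20 to 20.96), and 11 on Geltrex™ (5.49 to 19.7), intervals that cover counting error only. With no filter, *Cfb* gave edgeR adjusted p = 0.0208 on Geltrex™ and 0.0204 on fibronectin, each over control, and *C4b* gave 0.617 and 0.875. However, 79.5% of the exon bases of *Cfb* are shared with the same-strand gene *Gm20547*, which had 0 counts in all samples, and how shared reads were counted is not stated, so the counts of *Cfb* cannot be read as its full level. *C4b* has a close paralog, *C4a*, with 32 to 69 reads per sample and no comparison that passed. *C2*, which pairs with C4 and also shares exons with *Gm20547*, had at most 8 reads.

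The surface regulators were expressed on every plate, and neither passed the test in any of the 6 comparisons. *Cd55* (ENSMUSG00000026399; chr1:130439027-130462744, minus strand), which speeds the decay of the C3-cleaving enzymes, was at 107.7, 137, and 166 CPM in the control, 137, 126, and 104 on Collagen I, 118, 134, and 119 on fibronectin, and 113, 107, and 108 on Geltrex™. Its groups overlapped apart from Geltrex™ against fibronectin, where the Geltrex™ samples were lower. The log2 fold change on Geltrex™ over control was -0.32 (95% interval -0.62 to -0.025, edgeR adjusted p = 0.0673), and without control replicate 1 it was -0.47 and passed (edgeR adjusted p = 0.00577). *Cd59a* (ENSMUSG00000032679; chr2:104095801-104115354, plus strand), which blocks the membrane attack complex, was at 15.5, 13.5, and 19.1 CPM in the control, 14.7, 14.7, and 16.1 on Collagen I, 14.6, 16.2, and 13.2 on fibronectin, and 13.3, 13.6, and 13.9 on Geltrex™. The Geltrex™ samples were below those on Collagen I and overlapped the rest. Its log2 fold changes over control were -0.23 on Geltrex™ (95% interval -0.52 to 0.050), -0.13 on fibronectin (-0.41 to 0.15), and -0.078 on Collagen I (-0.36 to 0.20), with edgeR adjusted p of 0.164, 0.450, and 0.791. The paralogs *Cd55b* and *Cd59b* had at most 3 and 4 reads in any sample.

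Counted over the 7 members other than *C3*, 5 of which passed the filter on low counts, 2 were higher on Geltrex™ than in the control, and 0 were lower, against 16.4% of all tested genes called higher and 16.6% called lower. On fibronectin 1 was lower than in the control, where 14.7% of tested genes were lower, and on Collagen I 0 passed, where 1.12% of tested genes passed, 0.917% as lower; 2 members had an unadjusted p under 0.05 there by edgeR, and DESeq2 called 1. Between the coatings, 3 were higher on Geltrex™ than on fibronectin (9.06% of tested genes), 2 were higher and 0 lower on Geltrex™ than on Collagen I (19.0% and 18.2% of tested genes, 37.1% together), and 1 was higher and 1 lower on fibronectin than on Collagen I (22.9% and 22.1%). Groups that did not overlap were counted in the same way. Of the 5, 2 did not overlap between Geltrex™ and the control, where 50.4% of tested genes did not, and 1 did not overlap between fibronectin and the control (41.6%). Between Collagen I and the control it was 1 (17.3%), between Geltrex™ and fibronectin 4 (42.7%), between Geltrex™ and Collagen I 3 (54.7%), and between fibronectin and Collagen I 2 (51.4%). The median log2 fold change of the 5 on Geltrex™ over control was -0.15, beside -0.012 over all tested genes. The comparisons share their samples and are not independent of one another.

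The rest of the pathway was covered by 49 further complement genes, of which 14 passed the filter on low counts and 12 were at 0 counts in all samples. On Geltrex™ over control 6 were higher (*C1s2*, *C1rb*, *C1rl*, *Masp1*, *Colec10*, and *Itgb2*) and 0 were lower, beside 16.4% and 16.6% of all tested genes, and 5 were higher without Geltrex™ replicate 1. The median log2 fold change of the 14 was 0.33, beside -0.012 over all tested genes. On fibronectin over control 3 were higher, *Colec10* and *Masp1* among them, beside 17.1% of all tested genes. On Collagen I over control 0 passed by edgeR, where 1.12% of tested genes passed, 3 had an unadjusted p under 0.05, and DESeq2 called 2. Between the coatings, 5 were higher and 0 lower on Geltrex™ than on fibronectin (9.06% and 10.3% of tested genes). Against Collagen I, 6 were higher and 1 lower on Geltrex™ (19.0% and 18.2%), and 4 were higher and 2 lower on fibronectin (22.9% and 22.1%).

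Initiation of the lectin route, which starts complement on sugars, was represented by *Masp1*, a protease, and *Colec10*, a collectin. *Masp1* has 4 annotated transcripts, and counts per gene do not tell which of its products was made. *Masp1* was at 142.8 ± 9.94 CPM in the control, 120.7 ± 5.88 on Collagen I, 183 ± 7.19 on fibronectin, and 198 ± 4.78 on Geltrex™ (SD, n = 3 each). Its log2 fold change over control was 0.36 on fibronectin (SE 0.0744, edgeR adjusted p = 0.0018) and 0.47 on Geltrex™ (SE 0.0744, edgeR adjusted p = 0.000159). *Colec10* was at 2.58 ± 0.485, 2.51 ± 0.231, 3.87 ± 0.531, and 7.87 ± 0.361 CPM on the surfaces in that order (SD, n = 3 each). It was higher over control on fibronectin, by 0.58 (edgeR adjusted p = 0.0171), and on Geltrex™, by 1.61 (edgeR adjusted p = 2.02e-06), and Geltrex™ also exceeded fibronectin, by 1.02 (edgeR adjusted p = 0.000261). *C1rl*, a relative of C1r, was higher on Geltrex™ by 0.34 (edgeR adjusted p = 0.0378). *C2*, *Masp2*, *Fcna*, and *Colec11* had at most 8 reads in any sample.

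Among the other regulators, *Cr1l*, a membrane regulator of rodents, was at 66.8 to 77.4 CPM in all 12 samples, and *Cd46* at 1.17 to 2.89 CPM; neither passed in any comparison. *Cfi* and *Vtn* had at most 2 reads in any sample, and *C4bp* had 0.

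In the alternative and terminal parts, properdin (*Cfp*), which stabilizes the alternative C3-cleaving enzyme, was lower than on Collagen I both on fibronectin, by -1.24 (edgeR adjusted p = 0.00166), and on Geltrex™, by -0.92 (edgeR adjusted p = 0.0126). *Cfp* was at 1.19 to 3.92 CPM across the samples. *C8g* was the single terminal gene to pass the filter, at 0.594 to 1.61 CPM, and it passed the test nowhere, and *Hc*, which encodes C5, had at most 3 reads. Among receptors, *C3ar1*, which binds the C3a fragment, was at 0.382 to 0.770 CPM in the control and 0.824 to 1.11 on Geltrex™, a log2 fold change of 0.80 (95% interval 0.024 to 1.58, edgeR adjusted p = 0.0810). *Itgb2*, a subunit of complement receptors on leukocytes, was at 2.49 ± 0.308 CPM in the control and 4.22 ± 0.937 CPM on Geltrex™ (SD, n = 3 each). The log2 fold change was 0.76 (edgeR adjusted p = 0.00662). On Collagen I *Itgb2* was at 3.65 ± 0.441 CPM (SD, n = 3), with each sample above each control sample. The Geltrex™ samples overlapped those on Collagen I and did not pass against them. Its partners *Itgam* and *Itgax* had at most 3 reads and 0 reads. *Cd93* did not pass in any comparison.

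**Figure D4:**
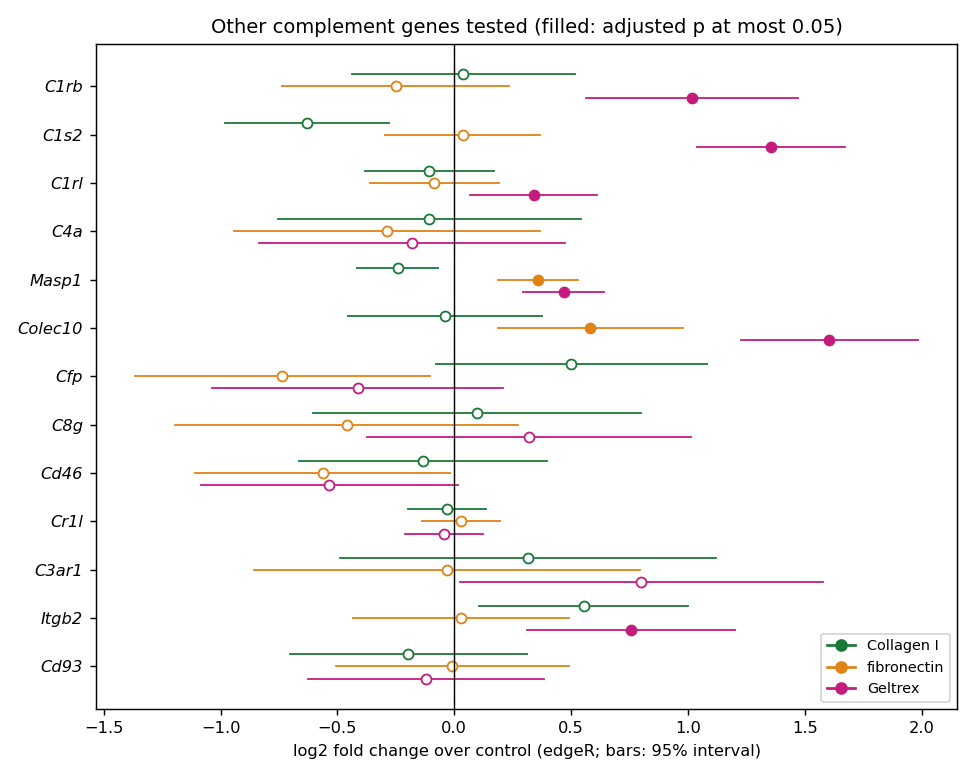
Log2 fold change over control of 13 of the 14 other complement genes that passed the filter on low counts, on Collagen I, fibronectin, and Geltrex™ (edgeR, n = 3 samples a group); bars are 95% intervals and filled points have an adjusted p of at most 0.05. Filled points number 6 for Geltrex™, 2 for fibronectin, and 0 for Collagen I among those drawn, and the largest is *Colec10* on Geltrex™ at 1.61.

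The genes whose pattern over the 12 samples was most like that of *C3* were found by the root mean square (RMS) difference of log2 CPM after the control mean of each gene was taken off. The median RMS difference over all tested genes was 4.19. This median is set mostly by the rise of *C3* itself, as a gene level in all samples would lie near it. A small RMS difference therefore means mainly a large rise on Geltrex™. The nearest were *Oas2* (1.27), *Iigp1* (1.42), *Saa3* (1.43), *Ifi44* (1.53), and *Ifit1* (1.60). *Saa3* is a serum amyloid of the acute phase, and *Oas2*, *Iigp1*, *Ifi44*, and *Ifit1* are known as interferon-induced genes. *Oas2* had 0, 0, and 1 reads in the control and 105, 141, and 167 on Geltrex™. *Iigp1* had 0, 2, and 0 reads in the control and 128, 136, and 150 on Geltrex™. *Ifit1* was at 0.464 CPM in the control and 26.4 CPM on Geltrex™ as group means. Within Geltrex™ the order of the samples differed. *Oas2*, *Iigp1*, *Ifi44*, and *Ifit1* were highest in replicate 3, whereas *C3* and *Saa3* were highest in replicate 1. All 5 genes shared with *C3* a high level on Geltrex™ and a low one elsewhere, and none reached its CPM there. The difference of *C3* from the control mean on this scale was 8.33 on Geltrex™, against 5.46 to 5.98 for these 5. The prior count of 2, which is added before the logarithm is taken, shrinks differences of genes near 0 counts in the control. The gap between *C3* and these 5 therefore depends partly on the prior count and does not rank their changes. Because most of them were near 0 counts in the control, no fold change is given for them, and since the likeness chose these genes, no test is given. *Oas2*, *Iigp1*, *Saa3*, and *Ifi44* had at most 7 reads in any sample outside Geltrex™ and passed the filter on low counts through their Geltrex™ reads.

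**Figure D5:**
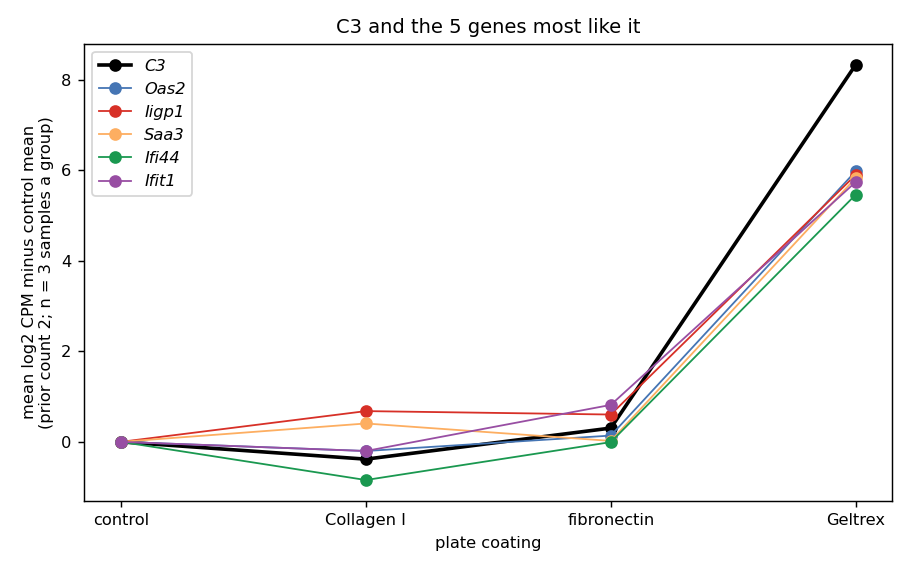
Mean log2 CPM (prior count 2) above the control mean on each plate surface for *C3* and the 5 genes with the most similar pattern (n = 3 samples a group, 12 in all). *C3* stands at 8.33 on Geltrex™ and the others between 5.46 and 5.98, while all 6 lie within 1 of the control on Collagen I and fibronectin.

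Other genes tied to the acute phase response to inflammation, many of them for plasma proteins of the liver, were read from a list of 16. The filter on low counts was passed by 4, of which *Saa3*, *Serpina3g*, and *Ptx3* passed through their reads on Geltrex™, so their being higher there is partly set by the filter and no count over the 4 is given. *Cp* (ceruloplasmin, a copper carrier) was at 431 ± 54.2 CPM in the control and 720 ± 23.3 CPM on Geltrex™ (SD, n = 3 each), a log2 fold change of 0.74 (SE 0.0929, edgeR adjusted p = 1.62e-05). *Ptx3*, a pentraxin that binds C1q, had 6 reads in each control sample, 17, 11, and 3 on fibronectin, and 32, 26, and 38 on Geltrex™. *Saa3* had 2, 1, and 3 reads in the control and 215, 209, and 198 on Geltrex™, and *Serpina3g* had 0, 0, and 1 against 36, 33, and 26. The other 12, among them *Hp*, *Lcn2*, and *Saa1*, had at most 19 reads in any sample, and *Fga*, *Fgb*, and *Fgg* had 3, 2, and 3 reads in Geltrex™ replicate 1 and 0 elsewhere. *Cp* passed neither on fibronectin nor on Collagen I over control (edgeR adjusted p = 0.190 and 0.833).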

How the data were processed

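RNA sequencing libraries (12, paired-end) were made from C2C12GFP cells on 4 plate surfaces. The authors used Trimmomatic for trimming, HISAT2 for alignment, and featureCounts for counting per gene; the deposited values are raw counts for 55536 Ensembl genes, not normalized. Versions, genome build, annotation, and strand setting are not given in the sources used here. All 55536 IDs were found in GENCODE M21 (GRCm38), which gave names, positions, and exon lengths; promoter bases are RefSeq's (GRCm38.p6).

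Samples were grouped by their treatment label. Genes were kept with edgeR's filterByExpr (minimum count 10, minimum total 15), which left 14499. All 12 samples were fitted together (edgeR 4.0.16 in R 4.3.3, TMM scaling, quasi-likelihood F test, two-sided, 8 residual degrees of freedom), and 6 pairwise contrasts were taken with Benjamini-Hochberg adjustment. CPM used effective library sizes; log2 CPM used a prior count of 2. Ratios were compared by exact permutation (SciPy 1.17.1). DESeq2 1.42.0 and other settings were alternatives. The fit was tested on simulated counts. *C3* received no test. The members and gene lists were chosen with earlier results of these data known. Named genes were the members, the other complement genes that were tested, at most 4 of each other list by largest change on Geltrex™ among those passing, and the 5 genes nearest to *C3*; some of the genes this rule names are not reported here. Of 6 hepatocyte symbols 5 were found. Geltrex™ replicates, although close, differed by more than sampling noise and were kept as 3 samples.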

Additional observations from a re-analysis of the deposited data

How the results depend on the processing

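Of 450 fold changes of members recomputed under the alternatives, 433 stayed the same, 5 passed where they had not, 0 lost a pass, and 12 changed sign. To stay the same meant to keep the direction and the side of the threshold. For *C3* it meant to keep the direction and to move by less than the SD of log2 CPM within the groups. The sign changes were of small differences that passed nowhere, or of *C3*, which has no test. With single samples left out in turn, values ran from -0.27 to 0.00072 for *Serping1* on Geltrex™ over control. On fibronectin over control it gave -0.013 to 0.15 for *C1s1*, where the value was -0.002 without fibronectin replicate 3, -0.30 to 0.014 for *Cd55*, and -0.23 to 0.017 for *Cd59a*. On Collagen I over control it gave -0.67 to 0.012 for *C3*, positive without Collagen I replicate 2, and -0.18 to 0.066 for *Cd59a*. On fibronectin over Collagen I it gave -0.016 to 0.10 for *C1ra*, -0.096 to 0.10 for *Cd55*, with -0.045 without fibronectin replicate 2, and -0.12 to 0.025 for *Cd59a*; a minimum of 10 counts in every sample gave -0.0084 for *Cd55*. *Cd55* on Geltrex™ over control passed with no filter (edgeR adjusted p = 0.010) and with the 2 groups fitted alone (0.0408). *C1s1* on Collagen I over control passed with no filter (edgeR adjusted p = 0.00592) and by DESeq2 (0.0254).

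With no filter, the count of members passing was 4 on Geltrex™ over control, 2 on fibronectin over control, and 1 on Collagen I over control; *Cfb*, then in the test, was added on Geltrex™ and fibronectin, *Cd55* on Geltrex™, and *C1s1* on Collagen I. By DESeq2 it was 1 on Collagen I over control. Asking also for a fold change of at least 2 left 0 members on fibronectin over control and 0 on fibronectin over Collagen I. For the 14 other complement genes that rule left 3 on Geltrex™ over control, 0 on fibronectin over control, 3 and 2 on Geltrex™ over fibronectin and over Collagen I, and 1 on fibronectin over Collagen I. On Collagen I over control they numbered 2 by DESeq2 and 1 with no filter. With the Geltrex™ samples summed into 1 they numbered 3 over fibronectin and 4 over Collagen I. Leaving out 1 sample gave 2 to 5 on fibronectin over control (5 without fibronectin replicate 3) and 3 to 5 on Geltrex™ over fibronectin (3 without fibronectin replicate 1 or Geltrex™ replicate 1). The share of all tested genes called under each of these settings is not given. These counts therefore do not tell a change particular to complement genes from one over all genes. Where no value shows the cause of a change, the cause was not tested.

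Samples share replicate numbers across groups. Same-numbered samples had correlations of their deviations from -0.154 to 0.225, so the numbers give no pairing shared by all groups. A fit with the replicate number as a block changed no call of a member, moved their log2 fold changes by at most 0.00697, and called 4763 genes instead of 4786 on Geltrex™ over control. All 3 samples correlated best with their own number for fibronectin against Collagen I (0.0473, 0.169, and 0.225), so a pairing of these 2 groups is not excluded. In the other comparisons not all 3 did. Members under about 10 reads, *C4b* and *Cfb*, are limited by depth.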

Other observations

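A list of 28 genes of cytokine signaling upstream of complement and acute phase genes held cytokines, receptors, transcription factors, and the inhibitor *Socs3*. Of these, 25 passed the filter on low counts. On Geltrex™ over control 10 were higher and 5 were lower, beside 16.4% and 16.6% of all tested genes. *Irf7*, a transcription factor of the interferon response, was at 1.01 ± 0.334 CPM in the control and 8.23 ± 2.52 CPM on Geltrex™ (SD, n = 3 each), a log2 fold change of 3.01 (edgeR adjusted p = 6.84e-07). *Irf9*, another transcription factor of the interferon response, was higher by 1.27 (edgeR adjusted p = 4.77e-06). *Socs3*, a feedback inhibitor of cytokine signaling, was at 24.7 ± 2.94 CPM in the control and 8.83 ± 1.18 CPM on Geltrex™ (SD, n = 3 each), a log2 fold change of -1.48 (edgeR adjusted p = 2.93e-06). *Socs3* was also lower on fibronectin than in the control, by -0.50 (edgeR adjusted p = 0.0175).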
